A study of Mus musculus with 6 samples.

Results

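Sox9 and 5 other Sox genes of the bile duct epithelium (Sox4, Sox5, Sox6, Sox12 and Sox13) were followed in mouse biliary epithelial cells, which form the wall of the bile ducts. The 6 genes were found by their symbol among the 25302 rows of the expression table. Sox7, Sox17 and Sox18 were left out of the set by its definition, because in these data they were known to follow endothelial RNA. The cells came from the liver of 3 Control samples of genotype Sox9fl/fl and 3 Sox9cKO samples of genotype Sox9fl/fl:AlbCre+/-. Both groups thus carry floxed Sox9 alleles, and Sox9cKO alone carries AlbCre, a Cre recombinase driven by the albumin promoter, which is active in hepatocytes and in the fetal hepatoblasts from which biliary cells also arise. Age and sex are not given in the labels, nor are the Sox9 exons that lie between the loxP sites, and gene-level counts cannot separate reads of a deleted part from the rest. The labels do not say that the samples are separate animals, so p-values measure only the spread between these samples, which may be technical.

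SOX proteins are transcription factors that bind and bend DNA through an HMG box, and they are grouped by its likeness. Sox9 belongs to the SoxE group, marks the bile ducts from their first appearance in the embryo, and is the master regulator of cartilage. Sox4 and Sox12 are SoxC factors, which are known for progenitor and neuronal genes, and Sox4 acts with Sox9 in the forming duct. Sox5, Sox6 and Sox13 are SoxD factors, which lack a transactivation domain of their own and bind as dimers, and Sox5 and Sox6 work beside Sox9 on cartilage genes.

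Values are normalized read counts, the reads of a gene after division by a size factor for its sample. Differences are log2 fold changes of Sox9cKO against Control on the log2(value + 1) scale, tested with limma over 17153 genes with a mean of at least 10, and a gene was called at a Benjamini-Hochberg adjusted p under 0.05. All tests were two-sided. The samples held between 11883496 and 16191990 reads in genes. All 6 Sox genes were tested, and 2 were called, Sox9 and Sox6, both lower in Sox9cKO. Over all tested genes 2.97% were called, 2.03% higher and 0.939% lower. With the replicate number as a block, which the pairing of same-numbered samples allows, 4 of the 6 were called, with Sox4 higher and Sox9, Sox5 and Sox6 lower. That fit called 8.05% of all genes, 5.06% higher and 2.99% lower. In 5 of the 6 genes the values of the groups did not overlap, which was so for 24.2% of all tested genes.

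Sox9 (ENSMUSG00000000567, chromosome 11) came first as the targeted gene. It had 6211, 6043 and 6293 normalized reads in Control replicates 1 to 3. Sox9cKO replicates 1 to 3 had 3363, 3165 and 3340. The groups lay far apart, and the samples of each group lay close together (6182 ± 127 against 3289 ± 108, SD, n = 3). Sox9cKO samples thus kept 53.2% of the Control level, and 54.1%, 52.4% and 53.1% when each was set against the Control sample of its own number. The log2 fold change was -0.91 (SE 0.095, limma, adjusted p 0.00501). In bulk samples, fewer cells with the transcript and less transcript per cell cannot be told apart, here and for every gene that follows.

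**Figure D1:**
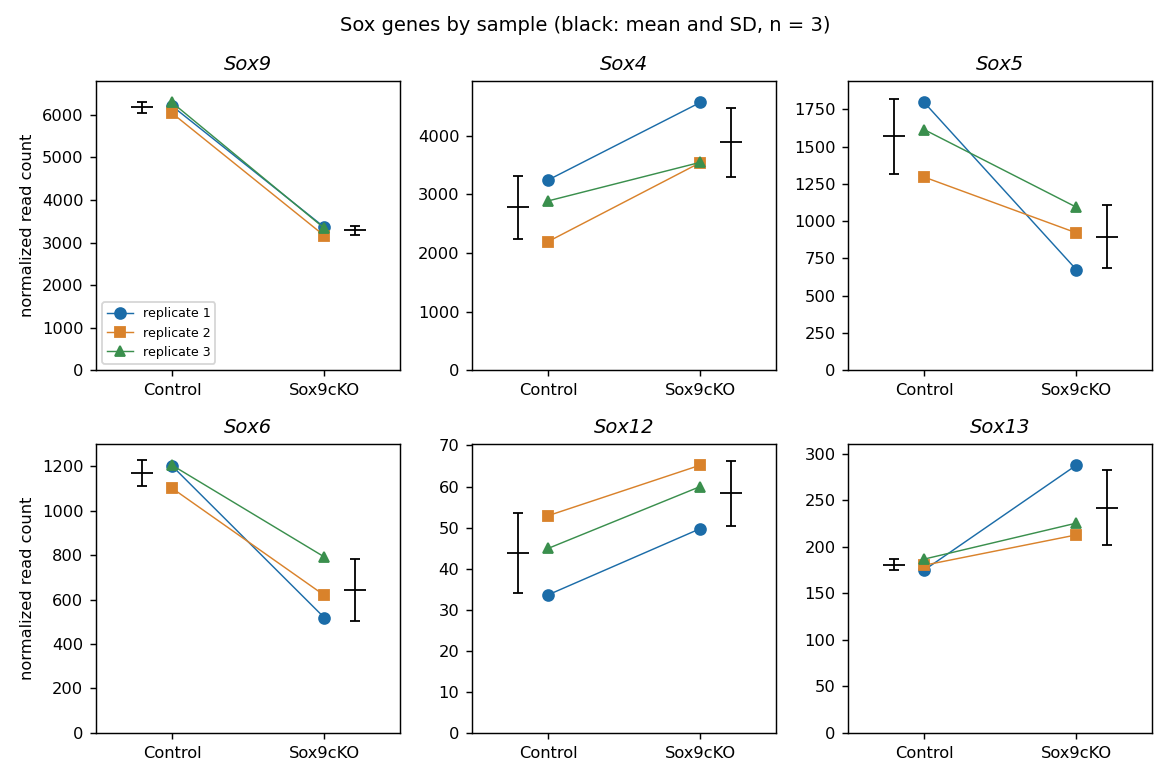
Normalized read counts of the 6 Sox genes in each sample (y axis, from 0), with lines joining samples of the same replicate number and the mean and SD (n = 3) in black. Sox9, Sox5 and Sox6 sit lower in all 3 Sox9cKO samples, Sox4 and Sox13 sit higher, and Sox12 overlaps between the groups.

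Of the SoxC genes, Sox4 (ENSMUSG00000076431, chromosome 13) had 3245, 2195 and 2888 normalized reads in Control and 4569, 3542 and 3547 in Sox9cKO. The lowest Sox9cKO sample lay above the highest Control sample, and in same-numbered pairs the Sox9cKO level was 141%, 161% and 123% of Control. The log2 fold change of 0.49 (SE 0.18) was not called with limma (adjusted p 0.210) but was with the replicate block (adjusted p 0.0436), and not with edgeR's quasi-likelihood test and the block (adjusted p 0.0617). Sox12 (ENSMUSG00000051817, chromosome 2), a weaker activator of the same group, had 33.6, 52.9 and 44.9 normalized reads in Control and 49.7, 65.2 and 60.0 in Sox9cKO. These values overlapped between the groups, although each Sox9cKO sample was above the Control sample of its number. The log2 fold change was 0.42 (SE 0.26, limma, adjusted p 0.461).

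Of the SoxD genes, Sox6 (ENSMUSG00000051910, chromosome 7), which is also known as a repressor in red blood cell and muscle development, had 1202, 1102 and 1205 normalized reads in Control and 519, 620 and 792 in Sox9cKO. The highest Sox9cKO sample stayed below the lowest Control sample and the mean was down to 55.1% of that in Control. Sox6 fell by 0.88 on the log2 scale (SE 0.17, limma, adjusted p 0.0406). The call was lost without an intensity trend (adjusted p 0.0882) and in 5 of the 6 fits that left out 1 sample. The adjusted p was 0.167, 0.0787 and 0.138 without Control replicates 1, 2 and 3, and 0.0777, 0.120 and 0.0315 without Sox9cKO replicates 1, 2 and 3, at log2 fold changes between -1.04 and -0.74.

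Sox5 (ENSMUSG00000041540, chromosome 6), the closest relative of Sox6, had 1796, 1296 and 1614 normalized reads in Control and 675, 921 and 1094 in Sox9cKO. The groups did not overlap, and the Sox9cKO level was 37.6%, 71.1% and 67.8% of Control in the same-numbered pairs. The log2 fold change of -0.82 (SE 0.21) missed the threshold with limma (adjusted p 0.0954) and passed it with the block (adjusted p 0.0478), with sample weights (adjusted p 0.0347) and with DESeq2 (adjusted p 0.00644). It missed the threshold with edgeR and the block (adjusted p 0.0518) and in all 6 fits that left out 1 sample (adjusted p from 0.0899 to 0.298). The proportion of Sox6 to Sox5 overlapped between the groups. Sox6 had 0.669, 0.850 and 0.747 reads per Sox5 read in Control and 0.770, 0.673 and 0.725 in Sox9cKO (exact permutation test, p = 0.7). Sox13 (ENSMUSG00000070643, chromosome 1), which is also known from T cells, lay on the other side. It had 175, 180 and 187 normalized reads in Control and 288, 213 and 225 in Sox9cKO, without overlap. Its log2 fold change was 0.41 (SE 0.17, limma, adjusted p 0.258). The table also holds 3 genes that overlap Sox5 in GENCODE M21, the same-strand Gm44068 (28.9 to 71.3 normalized reads over the samples) and Sox5it (1.99 to 9.22) and the opposite-strand Sox5os2 (0 to 3.36). Whether counting used the strand is not given in the sources used here, so reads of antisense genes at Sox5 and Sox6 cannot be told apart from their own.

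Sox6 starts at many places in the annotation, and its upstream windows held SOX motifs, so they are shown here. RefSeq (GRCm38.p6) gives upstream windows for 5 of the 6 genes, 10 windows in all, each of 250 bases before a transcript start. The SOX motifs AACAAAG and AACAATG were searched on both strands. A match was found in 4 of the 6 windows of Sox6, while 8.12% of all 32851 windows of that length held one. Sox4, Sox5, Sox12 and Sox13 had a single window each, without a match, and Sox9 had no window. The Sox6 windows are shown because they held matches, so setting them against that share is no test. The stretches around the 4 matches lie on the minus strand of chromosome 7, written 5′ to 3′ with the match in capitals (CTTTGTT is AACAAAG on the other strand):
Sox6 chr7:116038825-116038885, match 114 bases before the start: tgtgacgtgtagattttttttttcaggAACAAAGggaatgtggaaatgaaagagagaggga
Sox6 chr7:115995195-115995255, match 142 bases before the start: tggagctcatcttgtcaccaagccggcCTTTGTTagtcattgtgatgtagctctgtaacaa
Sox6 chr7:115846152-115846212, match 45 bases before the start: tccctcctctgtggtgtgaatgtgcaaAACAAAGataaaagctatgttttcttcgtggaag
Sox6 chr7:115824913-115824960, match 236 bases before the start: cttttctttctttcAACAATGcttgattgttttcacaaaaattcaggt
A match describes the letters of a window and does not show that a SOX protein binds there, and no match says only that these letters are not in the window.

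**Figure D2:**
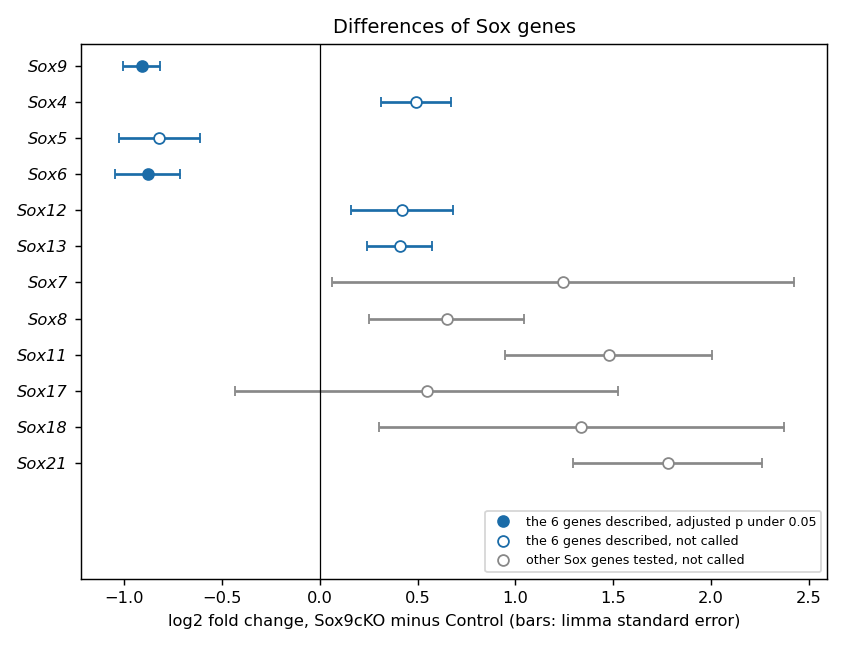
Log2 fold change of Sox9cKO against Control (x axis) for the 6 genes described and the 6 other Sox genes tested, with limma standard errors as bars. Filled points mark the 2 called genes, Sox9 (-0.91) and Sox6 (-0.88), and the Sox genes outside the 6 all lie right of 0.

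To compare levels between genes, normalized reads were divided by the length of the union of a gene's exons in GENCODE M21. In Control the order was Sox9 (1495 ± 30.8 normalized reads per kilobase, SD, n = 3), Sox4 (579 ± 111), Sox5 (109 ± 17.6), Sox6 (78.9 ± 3.97), Sox13 (41.9 ± 1.37) and Sox12 (9.84 ± 2.18). No neighbours in this order overlapped over the 3 samples, and Sox9 stood 2.58 times above Sox4. Over all 6 samples, 98.3% of 17011 tested genes with a known length had a lower level per kilobase than Sox9, and 96.7% a lower level than Sox4. For Sox5 and Sox6 those shares were 64.4% and 56.1%, for Sox13 50.6% and for Sox12 17.8%, so Sox9 and Sox4 were abundant transcripts while the SoxD genes lay near the middle.

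In Sox9cKO this order was different at the top. Sox4 (810 ± 123 normalized reads per kilobase) and Sox9 (795 ± 26.2) now overlapped, at a ratio of means of 1.02. Sox5 (62.4 ± 14.6), Sox13 (56.1 ± 9.30) and Sox6 (43.4 ± 9.31) followed, where Sox13 overlapped both of its neighbours, and Sox12 (13.1 ± 1.77) stayed last. With the length of the longest transcript in place of the exon union, Sox6 (74.3 per kilobase) came before Sox13 (65.5) in Sox9cKO, again with overlapping samples, and the rest of the order was the same.

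**Figure D3:**
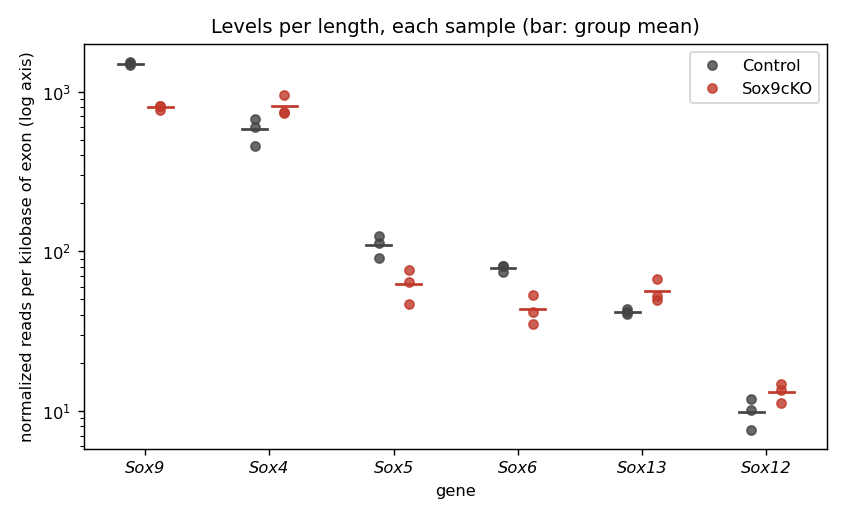
Normalized reads per kilobase of exon (log axis) of each gene in each sample, with the group means as bars. Sox9 and Sox4 are 2.58 times apart in Control and overlap in Sox9cKO, where Sox13 also overlaps Sox5 and Sox6.

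The make-up of the Sox reads can be given within each sample, free of any scaling between samples. Of the reads of the 6 genes, Sox9 held 49.0%, 55.6% and 51.4% in Control and 35.5%, 37.1% and 36.9% in Sox9cKO. The 95% Wilson intervals of single samples reached down to 48.2% in Control and up to 38.1% in Sox9cKO, and they cover counting error only. Sox9 thus passed from 52.0 ± 3.32% to 36.5 ± 0.851% (SD, n = 3), a difference of -15.5 points without overlap. The exact permutation test gave p = 0.1, the smallest p that 3 against 3 samples allow. Sox4 held 23.1 ± 2.75% in Control and 43.0 ± 4.73% in Sox9cKO, and shares of one total are tied to each other. Per Sox9 read there were 0.522, 0.363 and 0.459 Sox4 reads in Control and 1.36, 1.12 and 1.06 in Sox9cKO. Sox4 reads outnumbered Sox9 reads in each Sox9cKO sample and in no Control sample.

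**Figure D4:**
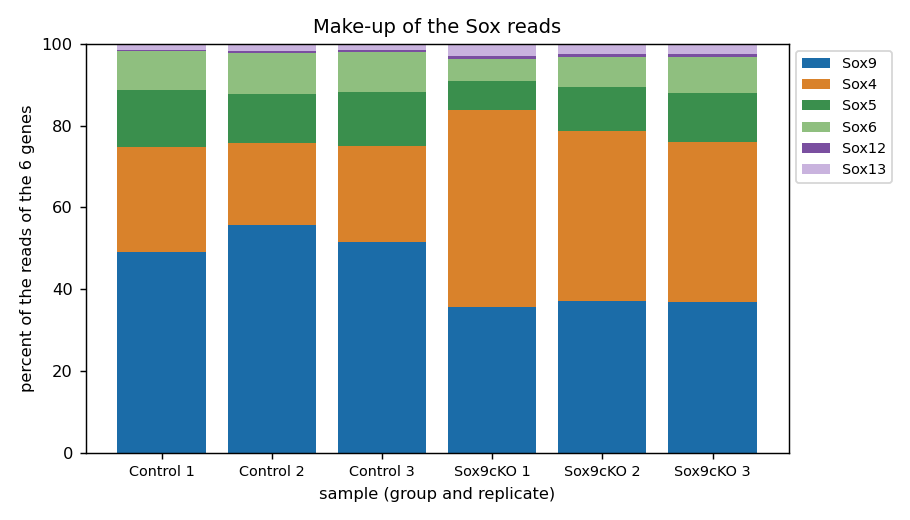
Percent of the reads of the 6 Sox genes (y axis) taken by each gene in each of the 6 samples (x axis). The Sox9 band lies between 49.0% and 55.6% in Control and between 35.5% and 37.1% in Sox9cKO, and the Sox4 band is the wider of both in every Sox9cKO sample.

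The sum of the 6 genes was 11921 ± 937 normalized reads in Control and 9015 ± 470 in Sox9cKO, without overlap (exact permutation test, p = 0.1). Without Sox9, the other 5 summed to 5739 ± 832 and 5726 ± 369, with overlapping samples (exact permutation test, p = 1). This even sum held opposite parts. The SoxC pair summed to 2820 ± 525 in Control and 3944 ± 584 in Sox9cKO, and the 3 SoxD genes to 2919 ± 307 and 1782 ± 316, neither with overlap (exact permutation test, p = 0.1 for each).

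Other Sox genes were read from the same table. Of 14 listed, 8 were in it, 6 were tested, all 6 had a log2 fold change above 0 and none was called by limma, edgeR or DESeq2, with 2 at an unadjusted limma p under 0.05. Over all tested genes the median log2 fold change was 0.04. Among the SoxF genes of endothelium, Sox7 had 139, 922 and 35.7 normalized reads in Control and 624, 782 and 127 in Sox9cKO. Sox17 had 49.6, 99.3 and 13.8 against 183, 74.7 and 15.8 (log2 fold change 0.55, but -0.21 without Control replicate 3 and -0.24 without Sox9cKO replicate 1), and Sox18 had 58.0, 115 and 8.06 against 128, 228 and 32.8. All 3 genes were lowest in replicate 3 of each group, and Sox18 alone was called with the block (log2 fold change 1.34, limma, adjusted p 0.0288, against 0.567 without it). Summed endothelial markers were also lowest in replicate 3 of each group, at 12410, 41213 and 1862 normalized reads in Control and 31907, 41395 and 6686 in Sox9cKO. The SoxF genes had been left out of the set for following endothelial RNA, so this likeness was known beforehand. All 13 of those markers had a log2 fold change above 0, and none was at 0 in any sample. None was called by limma, edgeR or DESeq2, with 1 at an unadjusted limma p under 0.05. With the block, 12 of the 13 had an unadjusted limma p under 0.05 (9 with edgeR), and Vwf alone was called by limma (adjusted p 0.0420) and not by edgeR (adjusted p 0.0581). Their part in the SoxF values was not tested.

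The remaining Sox genes were scarce. Sox8, a SoxE relative of Sox9, had 27.7, 17.6 and 31.1 normalized reads in Control and 57.7, 24.6 and 43.0 in Sox9cKO (log2 fold change 0.65, limma, adjusted p 0.452). Sox11, a SoxC relative of Sox4, had 9.25, 35.3 and 11.5 against 66.7, 38.7 and 36.2 (1.48, limma, adjusted p 0.206). Sox21, a SoxB factor, had 5.88, 4.64 and 11.5 against 42.8, 18.0 and 22.6 (1.78, limma, adjusted p 0.114). Its mean reached the filter of 10 only through the Sox9cKO samples. Sox11 and Sox21 did not overlap between the groups, Sox11 by a narrow margin. Sox15 and Sox30 had at most 6.62 normalized reads in a sample and were not tested. Sry, Sox1, Sox2, Sox3, Sox10 and Sox14 were not analysed here.

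Genes known in cartilage as targets of Sox9 with Sox5 and Sox6 had lower means in Sox9cKO throughout, and 1 of them was called. The lower mean held for all 14 listed genes in the table. In 10 of them the groups did not overlap, which was so for 24.2% of all tested genes. Of those 10, 6 were genes of few reads below the filter. Together the 14 genes had 2724, 2214 and 2881 normalized reads in Control and 990, 1051 and 1296 in Sox9cKO. Col27a1 made up the largest part of this sum in each Control sample. The filter was passed by 5 of the 14, with a median log2 fold change of -1.12, and the other 9 were below the filter. Over all 17153 tested genes, 9293 had a log2 fold change above 0. With the replicate block 4 of the 5 were called, in a fit that called 8.05% of all tested genes, 2.99% lower. The called gene was Col27a1, which encodes a fibrillar collagen, with 1471, 982 and 1436 normalized reads in Control and 513, 469 and 409 in Sox9cKO. Its log2 fold change was -1.46 (SE 0.19, limma, adjusted p 0.00930), and the call was missed without Control replicate 1 (adjusted p 0.0518).

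Of the other 4 tested cartilage genes, Col11a2, a minor fibrillar collagen, had 410, 397 and 516 normalized reads in Control and 176, 180 and 280 in Sox9cKO (log2 fold change -1.08, limma, adjusted p 0.0510, and 0.00681 with the block). Matn4, a matrilin of the matrix, had 502, 363 and 548 against 138, 168 and 411, with overlap (-1.12, limma, adjusted p 0.204, 0.0478 with the block, and 0.0570 with edgeR and the block). Col9a3, a chain of collagen IX, had 258, 391 and 277 against 132, 201 and 181 (-0.84, limma, adjusted p 0.117, and 0.0216 with the block). Col2a1, the main cartilage collagen, was scarce, at 16.8, 22.3 and 25.3 against 4.97, 8.51 and 5.66 (-1.62, limma, adjusted p 0.0782, 0.0520 with the block, and 0.0481 with edgeR and the block). The 9 genes below the filter never passed 17.3 normalized reads in a sample. Among these, Acan (aggrecan) had 13.4, 11.1 and 8.06 normalized reads in Control and 0, 3.78 and 0 in Sox9cKO. Matn1 was not analysed here. Without a filter, all 14 had a log2 fold change below 0 and 3 were called by limma, Col27a1, Col11a2 and Col9a1 (adjusted p 0.0254), the last with 5.88, 4.64 and 9.22 normalized reads in Control and 0 in each Sox9cKO sample. In the other fits, each of the 5 genes was lower wherever it was tested (a filter at 50 left 4), and between 0 and 4 were called, with 0 without Control replicate 1 and 3 without Sox9cKO replicate 3.

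**Figure D5:**
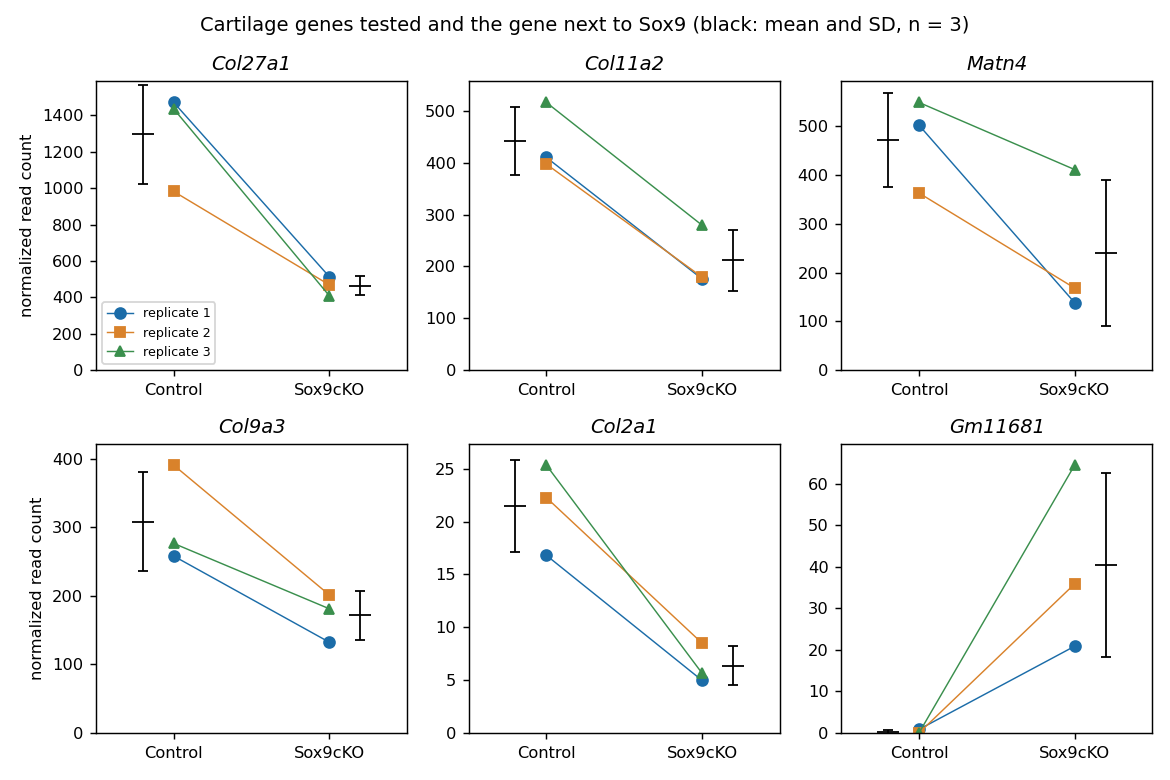
Normalized read counts (y axis, from 0) of the 5 tested cartilage genes and of Gm11681, the gene next to Sox9, in each sample, with lines joining samples of the same replicate number and the mean and SD (n = 3) in black. The collagens Col27a1, Col11a2, Col9a3 and Col2a1 are lower in all 3 Sox9cKO samples, Matn4 overlaps, and Gm11681 lies between 20.9 and 64.5 in Sox9cKO and at most at 0.841 in Control.

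Genes known to act on Sox9 in ducts, namely the Notch pathway, YAP with TEAD, and liver-enriched factors, were mostly not called. Of the 20 tested, 1 was called, Tead4, a DNA-binding partner of YAP, and the median log2 fold change was -0.09. Tead4 had 218, 261 and 287 normalized reads in Control and 699, 683 and 830 in Sox9cKO (1.53, SE 0.16, limma, adjusted p 0.00475). With the block, Onecut2 was called higher as well (0.52, limma, adjusted p 0.0251). Notch2, the main receptor of duct formation, had 8340, 6811 and 9110 against 5199, 5685 and 7093 (-0.43, limma, adjusted p 0.227), and Hes1, a Notch target, had 849, 712 and 1009 against 701, 685 and 632 (-0.34, limma, adjusted p 0.312). Jag1 of the same list went the other way, at 2771, 1547 and 2002 against 2667, 3520 and 3826, with overlap (0.69, limma, adjusted p 0.187). Of the 20 genes, 7 had a log2 fold change above 0. Of 10 tested factors with an HMG box outside the Sox family, none was called by limma with or without the block, by edgeR or by DESeq2, none had an unadjusted limma p under 0.05, and the median was -0.05. Of 5 tested neuronal genes known to respond to SoxC factors, 3 had a log2 fold change above 0, and the median was 0.15. Of these 5, 1 was called lower, Dcx (doublecortin), with 588, 346 and 336 normalized reads in Control and 13.9, 1.89 and 3.40 in Sox9cKO (-6.16, limma, adjusted p 0.00412). Dcx passed the filter through its Control samples. Tubb3, a neuronal tubulin of that list, had 19.3, 36.2 and 25.3 against 17.9, 4.73 and 13.6 (-1.22, limma, adjusted p 0.281). With the block, Nefl of that list was called higher (1.72, limma, adjusted p 0.0459).

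Next to Sox9 on its right in RefSeq (GRCm38.p6) lies Gm11681 (ENSMUSG00000075437), annotated in GENCODE M21 as a long non-coding RNA of 3 exons on the strand opposite to Sox9 and without overlap with it. It had 1, 0 and 0 reads in the Control samples, by replicate number, and 21, 38 and 57 reads in the Sox9cKO samples. As normalized reads the Sox9cKO values were 20.9, 35.9 and 64.5. Against a floor of 3 reads in each Control library, the Sox9cKO mean of 40.4 ± 22.2 was at least 13.8-fold higher (limma, adjusted p 0.00663). Gm11681 passed the filter only through its Sox9cKO samples. The neighbour on the left, BC006965, had 16.0, 12.1 and 12.7 normalized reads in Control and 5.97, 20.8 and 20.4 in Sox9cKO (limma, adjusted p 0.983). For the other 5 genes, the neighbours tested were the nearest genes with values, and the annotated genes closest to Sox4 and Sox5 had no values. Of these 6 tested neighbours, none was called by limma with or without the block, by edgeR or by DESeq2. None had an unadjusted limma p under 0.05. Among them were Cdkal1 on the right of Sox4 (-0.14, limma, adjusted p 0.660) and Etnk1 on the left of Sox5 (-0.17, limma, adjusted p 0.651).

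The genes whose pattern was most like that of a called Sox gene were found by the root mean square distance of centred log2 values over the 6 samples, among 9410 genes with a mean of at least 100. These genes were chosen for their likeness, so their values are a description. Nearest to Sox9 was Arid5a, an AT-rich interaction domain protein, at a distance of 0.0488. It had 2980, 2942 and 2968 normalized reads in Control and 1666, 1662 and 1643 in Sox9cKO, close together within each group. Next came Taf4b (0.0792), a subunit of the general factor TFIID, and Rnf122 (0.0807), a RING finger protein. Nearest to Sox6 were Ccdc162 (0.0456), Gask1a (0.0866) and Zbtb10 (0.118), a zinc finger protein. Zbtb10 had 3675, 2912 and 3375 normalized reads in Control and 1636, 1713 and 1962 in Sox9cKO.

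The label of the cells was checked against marker genes. Summed biliary markers lay between 201716 and 253748 normalized reads in Control and between 185328 and 254397 in Sox9cKO. All 14 were tested, and Krt7 alone was called, with means of 1948 normalized reads in Control and 3958 in Sox9cKO (limma, adjusted p 0.0408), a call kept without Sox9cKO replicate 2 and lost without any other single sample (adjusted p up to 0.152). With the block Tspan8 was called higher as well, and Spp1 and Pkhd1 were called lower. Hepatocyte markers overlapped, at 22885 to 35482 in Control and 30081 to 45796 in Sox9cKO, with 1 of 12 called (Tat, higher) and Hnf4a also called higher with the block. In each same-numbered pair the hepatocyte sum was higher in Sox9cKO. Of the 12 genes, 8 had a log2 fold change above 0, and the median was 0.35. Summed leukocyte and erythroid markers did not overlap, at 1094 to 1296 and 1553 to 1855, and Csf1r, the 1 gene of 9 tested that was called, supplied most of the sum. Csf1r was also the only 1 of the 9 with a log2 fold change above 0, and the median over the list was -0.68, with Ptprc at no more than 37.0 normalized reads. With the block Lyz2 of this list was called lower. Stellate and mesenchymal markers summed to 2470 to 3017 and 3033 to 6118, with 1 of 12 called (Msln, higher). A log2 fold change above 0 was seen in 7 of these 12, and their median was 0.06. Schwann and neural markers summed to 1416 to 1517 and 2720 to 4329, with 1 of 5 tested called (Ncam1, higher, log2 fold change 3.99). Ncam1 made up most of the Sox9cKO sums, 2 of the 5 had a log2 fold change above 0, and the median over the 5 was -0.06. Cdh19, a marker of Schwann cell precursors, had at most 4.20 normalized reads in a sample. The part of these cells in the Sox values was not tested. Leaving out single samples ended the call of Csf1r without Control replicates 1 or 3 or Sox9cKO replicate 2 (adjusted p up to 0.0728) and that of Msln without Control replicates 1 or 3 or Sox9cKO replicates 1 or 3 (adjusted p up to 0.0719).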

How the data were processed

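RNA of biliary epithelial cells was extracted with a micro-scale kit, depleted of ribosomal RNA and made into stranded libraries with molecular identifiers, per the labels. The deposited values are a signal per gene and sample, gene counts that the authors divided by a factor per sample, and 100% of the values were whole reads after division by the step of each sample (tolerance 0.001 reads), including Sox9cKO replicate 1, whose step of 0.995 lies close to 1. GRCm39 and DESeq2 1.36.0 are named in the submitters' processing notes, and the aligner, counter, annotation and use of the identifiers are not given in the sources used here. Intervals and floors cover counting error only.

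Genes whose mean reached 10 normalized reads were tested as log2(value + 1) with limma 3.58.1 in R 4.3.3, with an intensity trend and Benjamini-Hochberg adjustment at 0.05. Alternatives were edgeR 4.0.16 and DESeq2 1.42.0 on the recovered reads, a pseudocount of 0.1 or 5, a filter at 50 or none, TMM and quantile scaling, no trend, sample weights, a replicate block, and leaving out each sample. Same-numbered samples deviated together (correlations of 0.207, 0.472 and 0.542, against at most 0.0476 for other pairs), so the labels' replicate numbers were taken as pairs. Deviations were taken from the group means, so high correlations for same numbers in part lower those of other pairs by construction. The choice of the block thus rests on the same values that it was used to test. Samples of a group were not duplicates of each other. Scripts were tested on simulated data.

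The members and lists were chosen with earlier results of these data known. Named genes are the Sox genes and up to 3 called genes per list. The 3 genes most like Sox9 and Sox6 and the nearest neighbours with values were also named. Other list genes were named after their values were seen. Exon lengths came from GENCODE M21 (98.1% of rows matched). Its build differs from the one in the notes, so no coordinates are given except those of the Sox6 stretches, which are on GRCm38.p6. Results of some list genes are not reported here.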

Additional observations from a re-analysis of the deposited data

How the results depend on the processing

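Sox9 was called lower under all 18 alternatives of the gene fit, with log2 fold changes between -0.9997 and -0.88. The number of the 6 Sox genes called was 2, and it was 4 with the replicate block, 2 with edgeR and that block, 1 with no intensity trend and 1 to 2 when single samples were left out (2 without Sox9cKO replicate 3 alone, 1 without any other sample). The cause was not tested. The calls over all genes were 510, and 1043 with sample weights, 1160 with edgeR and the replicate block, 1214 with DESeq2, 1381 with limma and that block, and 200 to 389 without 1 sample. The Sox9 share of the reads of the 6 genes differed by -15.5 points, by -20.0 points per kilobase, by -16.3 points among all Sox genes and by -17.0 to -13.7 points without 1 sample. With pairing by replicate number its exact sign-flip test gave p = 0.25, the smallest possible. Sox12 and Sox13 kept their sign and were never called. Sox17 alone among the Sox genes tested changed sign, to -0.21 without Control replicate 3 and -0.24 without Sox9cKO replicate 1 (up to 1.48 without Sox9cKO replicate 3), never called. The longest-transcript lengths and the alternatives for cartilage and other named genes were chosen after seeing the data. With 3 samples a group, genes of a few reads, such as Sox12, Sox21 and most cartilage genes, carry the least precision.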
